A study of Danio rerio with 17 samples.

Results

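The 10 genes described here, cx43, fgfbp3, mfge8a, ptn, slc1a2b, aqp1a.1, ptgdsb.1, ptgdsb.2, hspb15 and fabp7a, marked the radial glia of the larval zebrafish optic tectum in the study's own clustering of these cells. They were taken by name from the 25432 genes of the deposited tables, and each name stood for 1 gene identifier. Because they were selected on these libraries for being high in radial glia, their contrast between radial glia and other cells is given as a description, without a test. Optic tecta with the torus longitudinalis were dissected and dissociated, and transcripts of single cells were counted in droplets as unique molecular identifiers (UMIs, 1 per captured transcript). All larvae were wild type and untreated, and each batch pooled tissue of many larvae dissected on a separate day. There were 7 batches at 7 days post fertilization (dpf), batches 1, 2, 3, 4, 8, 11 and 12, and 4 batches at 6 dpf, batches 5, 6, 7 and 10. The age tag of batch 8 gave 7 dpf while 1 line of its description gave 6 dpf, and the tag was followed.

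Of 87881 barcodes, 53173 were kept, each with 600 to 4000 detected genes, no more than 7500 UMIs and a mitochondrial share of UMIs of 10% or less. The batches held 5073733 to 88294858 UMIs and 815 to 14524 kept cells, with median depths of 1478.5 to 2874 UMIs per kept cell. Any pair of libraries shared at most 35 barcode sequences. As a share of the smaller library the highest value was 0.736%, in a different pair.

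Radial glia line the ventricle of the developing brain and act as neural stem cells, and in fish they persist and also take over tasks that astrocytes carry out in mammals. These tasks include the uptake of glutamate, the movement of water and ions, and coupling to neighbouring cells through gap junctions. The 10 genes cover several of them. cx43 encodes a gap junction protein, slc1a2b a glutamate transporter and aqp1a.1 a water channel. fgfbp3 encodes a secreted protein that binds fibroblast growth factors, ptn a secreted heparin-binding growth factor, and mfge8a a secreted protein whose mammalian relative bridges cells to exposed phosphatidylserine. ptgdsb.1 and ptgdsb.2 are neighbouring genes for lipocalin-type prostaglandin D synthase. fabp7a encodes a brain fatty acid-binding protein and hspb15 a small heat shock protein.

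Clustering without these 10 genes gave 23 clusters, of which 13 were neuron-like. The cluster with radial glia markers held 1736 cells and was divided again into 7 sub-clusters. Those 5 with a median of at least 4 of 10 radial glia genes outside the list, were kept as radial glia-like and held 1453 cells, or 2.73% of kept cells. The other 2, named here by their leading genes, were the cyp27c1 and rbp5 sub-cluster (177 cells) and the qkib and robo4 sub-cluster (106 cells). This division was chosen after levels of the 10 genes had been seen. Markers outside the list had named the cluster, so their levels are a description of it. In radial glia-like cells, the ion transporter gene slc4a4a had a UMI in 68.9% ± 15.3 of cells, against 3.65% ± 1.16 in other cells. The glutamine synthetase gene glula had one in 90.3% ± 12.5, against 42.4% ± 8.19 (SD, n = 6 batches for radial glia-like cells). The classic glial genes gfap and s100b were nearly undetected, with a UMI in 1.24% ± 1.01 and 2.30% ± 1.51 of radial glia-like cells.

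6 batches held at least 20 radial glia-like cells and were used as replicates. At 7 dpf these were batch 8 with 814 cells, batch 11 with 104 and batch 12 with 33. At 6 dpf they were batch 5 with 222 cells, batch 7 with 138 and batch 10 with 118. Batch 8 thus supplied 56.0% of all radial glia-like cells, and the 5 remaining batches together held 24. Batch 10 also stood apart in genes outside the list. Its radial glia-like cells carried a median of 3 of the 10 marker genes outside the list, against 5 to 6 in the other 5 batches, and slc4a4a had a UMI in 41.5% of them, against 63.0% to 85.6%. Values with and without batch 10 are therefore given. A doublet score called 33.1% of radial glia-like cells. Its calls ran from 10.6% to 87.1% of cells in the 5 sub-clusters kept. The sub-cluster with 87.1%, of 116 cells, gave 71 of the 104 cells of batch 11 and 25 of the 33 of batch 12. With all called cells removed 4 batches kept at least 20 cells. The mean share of cells with a UMI was then 69.1% for cx43, 42.2% for hspb15 and 90.4% for slc1a2b.

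All 10 genes were detected more often in radial glia-like cells than in other cells in 6 of 6 batches, as their selection would give. Over the 6 batches, slc1a2b had a UMI in 93.1% ± 8.72 of radial glia-like cells, fabp7a in 91.6% ± 7.09 and fgfbp3 in 85.0% ± 13.0. ptgdsb.1 was detected in 80.8% ± 23.4 of radial glia-like cells, ptgdsb.2 in 79.3% ± 23.7 and mfge8a in 76.1% ± 23.2. aqp1a.1 had a UMI in 73.2% ± 16.1, ptn in 72.5% ± 20.8 and cx43 in 72.2% ± 25.7, and hspb15 was the least often detected, in 46.6% ± 19.3 (all SD, n = 6). The spread came largely from batch 10. Without it, the shares ran from 53.4% ± 11.1 for hspb15 to 96.3% ± 4.3 for slc1a2b (SD, n = 5), with cx43 at 82.4% ± 6.94.

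Outside the radial glia-like class the 10 genes differed widely. fabp7a had a UMI in 25.4% ± 11.6 of all other cells and slc1a2b in 21.0% ± 6.35 (SD, n = 11 batches). ptgdsb.1, ptgdsb.2 and fgfbp3 followed at 12.0% ± 4.70, 11.6% ± 3.75 and 11.5% ± 4.74. cx43, ptn, mfge8a and aqp1a.1 lay between 2.2% and 5.26%, and hspb15 was found in 0.760% ± 0.497. With every cell thinned to 1000 UMIs, which left out 157 radial glia-like cells, hspb15 was detected in 31.9% ± 12.8 of radial glia-like cells and 0.390% ± 0.325 of other cells, and fabp7a in 89.0% ± 7.06 and 17.0% ± 9.05. When all 1736 cells of the undivided cluster were used, with 11 batches of at least 20 cells, the mean share for cx43 was 40.6% and that for hspb15 25.6%.

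Counted by transcripts rather than cells, the 1453 radial glia-like cells held 84.8% of all hspb15 UMIs, 81.0% of cx43 UMIs and 78.8% of mfge8a UMIs. They held 77.5% of the aqp1a.1 UMIs, 77.2% of fgfbp3, 73.2% of ptgdsb.1, 71.1% of ptgdsb.2 and 68.5% of ptn. The lowest shares were 63.8% for slc1a2b and 54.6% for fabp7a, so nearly as many fabp7a transcripts lay outside the class as inside it. By cells the picture was different, because sparse UMIs were spread over many other cells. Of all cells with a UMI of fabp7a, 10.3% were radial glia-like, and of those with a UMI of hspb15, 65.3%.

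**Figure D1:**
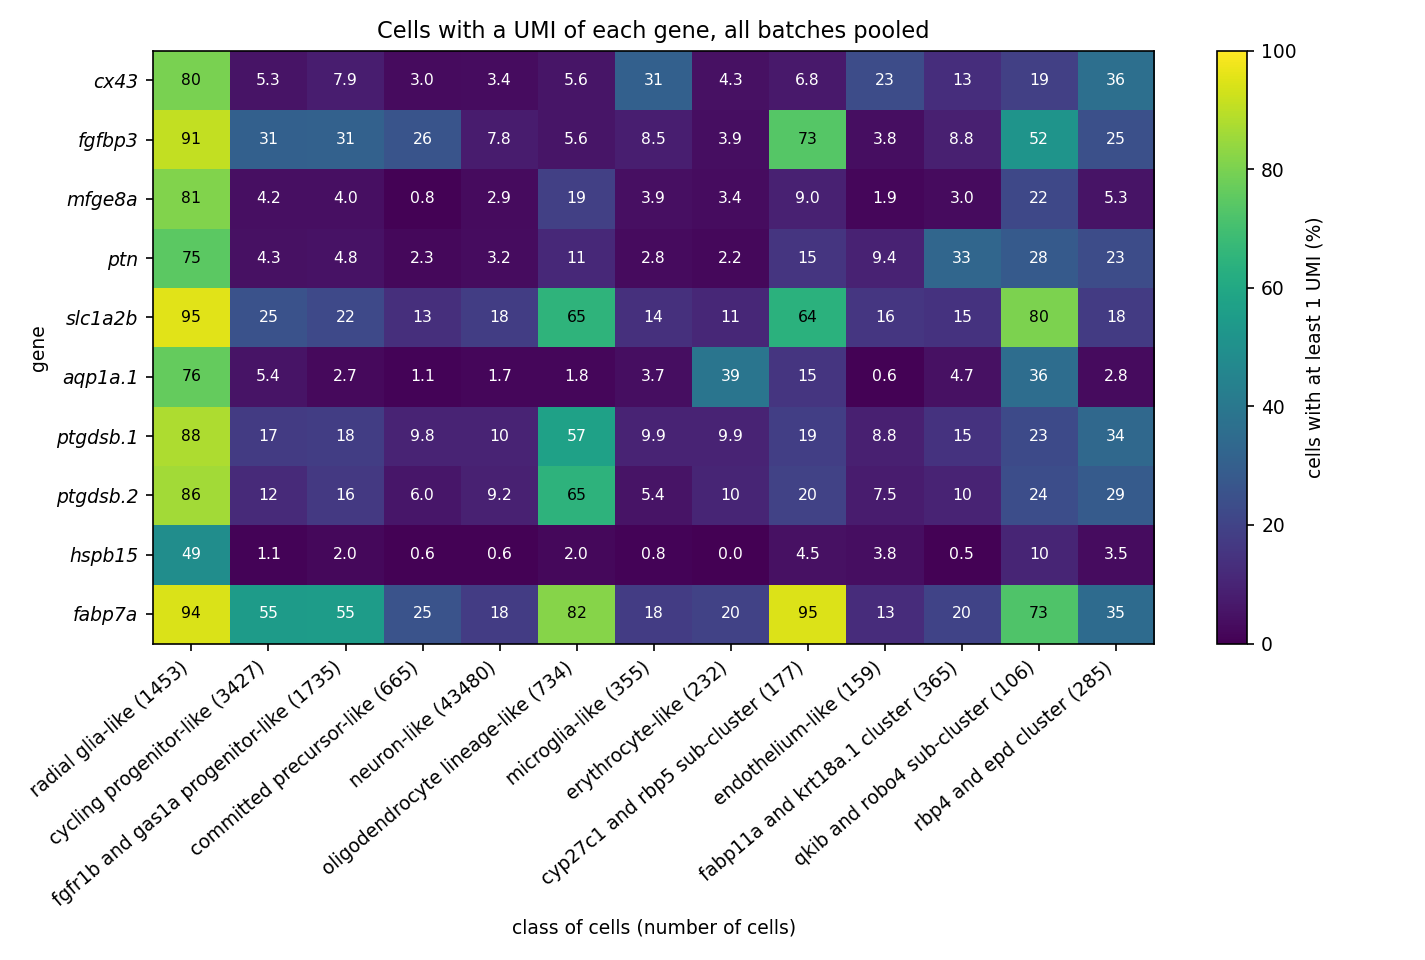
Percent of cells with at least 1 UMI of each gene (rows) in each class of cells (columns, with the number of cells), all batches pooled. The radial glia-like column runs from 48.9% for hspb15 to 95.5% for slc1a2b, and several genes have another class with many positive cells, such as 81.9% for fabp7a in oligodendrocyte lineage-like cells.

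Beyond radial glia-like cells, the class with the most positive cells was not the same for the 10 genes. A group of 5, fabp7a, slc1a2b, ptgdsb.1, ptgdsb.2 and mfge8a, were seen in oligodendrocyte lineage-like cells (734 cells led by olig2, olig1 and sox10). fabp7a had a UMI in 77.5% ± 19.3 of these cells, slc1a2b in 62.9% ± 15.06, ptgdsb.2 in 62.0% ± 16.1 and ptgdsb.1 in 52.5% ± 13.2 (SD, n = 11 batches). mfge8a was found in 17.7% ± 7.90, and ptn, not counted in this group, in 11.8% ± 3.89. In the same cells cx43 and fgfbp3 were detected in 5.94% ± 4.26 and 5.60% ± 3.78, hspb15 in 2.38% ± 2.99 and aqp1a.1 in 1.99% ± 2.36. The median depth was 1899 UMIs in the radial glia-like class and 2933.5 in the oligodendrocyte lineage-like class, of which the doublet score called 36.8%.

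Several of the genes were also found in dividing and early cells. In cycling progenitor-like cells fabp7a had a UMI in 54.9% and fgfbp3 in 30.7% of 3427 cells. In fgfr1b and gas1a progenitor-like cells fabp7a was found in 55.4% and fgfbp3 in 31.0% of 1735 cells. In committed precursor-like cells, which are led by neurod4 and dlb, fgfbp3 was found in 26.0% and fabp7a in 25.4% of 665 cells. slc1a2b was found in 25.1%, 22.0% and 13.4% of the same 3 classes, ptgdsb.1 in 17.3%, 18.3% and 9.77%, and ptgdsb.2 in 12.0%, 16.5% and 6.02%. Neuron-like cells had these genes in 18.1%, 10.1% and 9.18%. Committed precursor-like cells thus lay below neuron-like cells for slc1a2b, ptgdsb.1 and ptgdsb.2, and both progenitor-like classes lay above. For fgfbp3 and fabp7a, found in 7.77% and 17.9% of neuron-like cells, all 3 classes lay above, committed precursor-like cells included. These directions were the same with cells thinned to equal depth, in shares pooled over cells. As means over batches after thinning, the direction for ptgdsb.2 in cycling progenitor-like cells turned. It was found in 4.92% ± 4.44 of them and in 5.10% ± 2.79 of neuron-like cells (SD, n = 11 batches). Median depths were 2561, 2559 and 2852 UMIs in the 3 classes and 2118 in neuron-like cells. The differences were not tested. cx43, mfge8a, ptn, aqp1a.1 and hspb15 stayed at or below 7.9% in these 3 classes.

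cx43 was also found in 3 other groups of cells. It had a UMI in 36.5% of the cells of a cluster led by rbp4 and epd (285 cells), in 30.7% of microglia-like cells and in 23.3% of endothelium-like cells, against 3.4% of neuron-like cells. The doublet score called 61.1% of the rbp4 and epd cluster, 46.5% of microglia-like and 36.5% of endothelium-like cells, and its part in these shares was not tested. By batch, cx43 was found in 17.9% to 65.9% of microglia-like cells (6 batches), and in 7.69% and 20% of endothelium-like cells in the 2 batches with at least 20. In the rbp4 and epd cluster 9 of 17 radial glia markers outside the list were also at least 2-fold higher than in other cells. ptn was found in a cluster led by fabp11a and krt18a.1, with 33.2% of 365 cells, and was found in 23.2% of the rbp4 and epd cluster. Both ptgdsb genes were also found in the rbp4 and epd cluster, ptgdsb.1 in 33.7% and ptgdsb.2 in 28.8% of cells.

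In the sub-clusters set apart from the radial glia-like class, and counted among the other cells, the shares of the 10 genes were unequal. Both still carried radial glia markers outside the list. In the cyp27c1 and rbp5 sub-cluster 14 of 17 were at least 2-fold higher than in cells outside the cluster. In the qkib and robo4 sub-cluster these were 13 of 17, and in the sub-clusters kept 15 to 17. In the cyp27c1 and rbp5 sub-cluster, fabp7a had a UMI in 94.9%, fgfbp3 in 73.4% and slc1a2b in 63.8% of cells. There cx43 was found in 6.8%, mfge8a in 9.0% and hspb15 in 4.5%. Most cells of this sub-cluster came from batches 1, 2, 3, 4 and 6, with 31, 28, 17, 16 and 71 cells. Those batches held only 3, 1, 6, 13 and 1 radial glia-like cells. These shares and those of radial glia-like cells thus came mostly from different batches, and the part of batch was not tested. In the qkib and robo4 sub-cluster slc1a2b was found in 80.2%, fabp7a in 72.6%, fgfbp3 in 51.9% and aqp1a.1 in 35.8% of cells, and cx43 in 18.9%. These pooled values are mostly those of batch 10, which gave 77 of its 106 cells. cx43 was found there in 52.4% of 21 cells of batch 11 at 7 dpf and in 7.79% of the 77 cells of batch 10 at 6 dpf, and mfge8a and ptgdsb.1 each in 61.9% and 10.4%. The shares were thus lower in batch 10 than in batch 11. In radial glia-like cells of batch 11, cx43 and mfge8a were each found in 83.7% and ptgdsb.1 in 90.4%. In those of batch 10, cx43, mfge8a and ptgdsb.1 were found in 21.2%, 30.5% and 34.7%. In both batches the sub-cluster lay below the radial glia-like cells for these genes. The doublet score called 32.8% of the cyp27c1 and rbp5 sub-cluster and 59.4% of the qkib and robo4 sub-cluster.

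Levels within radial glia-like cells, as UMIs of a gene per 10000 UMIs of those cells in a batch, spanned more than a factor of 10 between genes. These are 3′ counts and do not depend on gene length. The highest mean was that of fabp7a at 121 ± 83.5, followed by slc1a2b at 91.9 ± 23.9, fgfbp3 at 74.0 ± 30.0, ptgdsb.1 at 66.3 ± 52.7 and ptgdsb.2 at 49.9 ± 32.6 (SD, n = 6 batches). cx43 reached 33.0 ± 14.1, mfge8a 22.0 ± 8.60, ptn 17.0 ± 5.73, aqp1a.1 15.7 ± 4.41 and hspb15 5.83 ± 2.53. Neighbours in this order differed by less than the sum of their SDs, apart from the step from aqp1a.1 to hspb15.

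In the order of classes by level, radial glia-like cells came first for each of the 10 genes. For cx43 the next class was the rbp4 and epd cluster at 5.25 ± 5.08 UMIs per 10000 (SD, n = 6 batches), and the batch ranges overlapped, since cx43 fell to 8.78 in batch 10 of the radial glia-like cells. fgfbp3, mfge8a, ptn, slc1a2b, aqp1a.1 and hspb15 had batch ranges in radial glia-like cells above those of the next class. For mfge8a, ptn, slc1a2b and hspb15 this was the qkib and robo4 sub-cluster, with 2 batches. For fgfbp3 it was the cyp27c1 and rbp5 sub-cluster, whose 3 batches were not among the 6 of radial glia-like cells. For aqp1a.1 it was erythrocyte-like cells, with 4 batches. The genes were selected as high in radial glia, so these ranges are a description. ptgdsb.2 overlapped with oligodendrocyte lineage-like cells, at 9.75 ± 5.76 (n = 11). For ptgdsb.1 the mean of 66.3 in radial glia-like cells and 10.9 ± 13.1 in the rbp4 and epd cluster lay within the spread of batches. For fabp7a the level of 121 ± 83.5 in radial glia-like cells did not differ beyond its spread from 87.1 ± 45.5 in the cyp27c1 and rbp5 sub-cluster (n = 3). These 3 batches were again not among the 6 of radial glia-like cells, so class and batch cannot be told apart here. Oligodendrocyte lineage-like cells came next for fabp7a at 27.5 ± 14.2 (n = 11).

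Batches differed most in the prostaglandin D synthase genes and in fabp7a. ptgdsb.1 was at 125, 55.2 and 30.1 UMIs per 10000 in batches 8, 11 and 12 at 7 dpf, and at 138, 38.5 and 11.0 in batches 5, 7 and 10 at 6 dpf. Its highest and lowest batch differed 12.6-fold, or 4.60-fold without batch 10. ptgdsb.2 was at 84.7, 43.2 and 34.3 in the same 7 dpf batches, and at 94.9, 29.4 and 12.7 in the 6 dpf batches. Both genes were thus highest in batches 5 and 8 and lowest in batch 10. fabp7a was at 119, 67.6 and 49.0 in the 7 dpf batches and at 283, 110 and 99.0 in the 6 dpf batches, so that batch 5 exceeded every other batch. slc1a2b varied least, with 67.9, 127 and 114 at 7 dpf and 88.0, 82.8 and 71.1 at 6 dpf, a 1.88-fold range. Batch 10 was the lowest batch for 7 of the 10 genes.

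**Figure D2:**
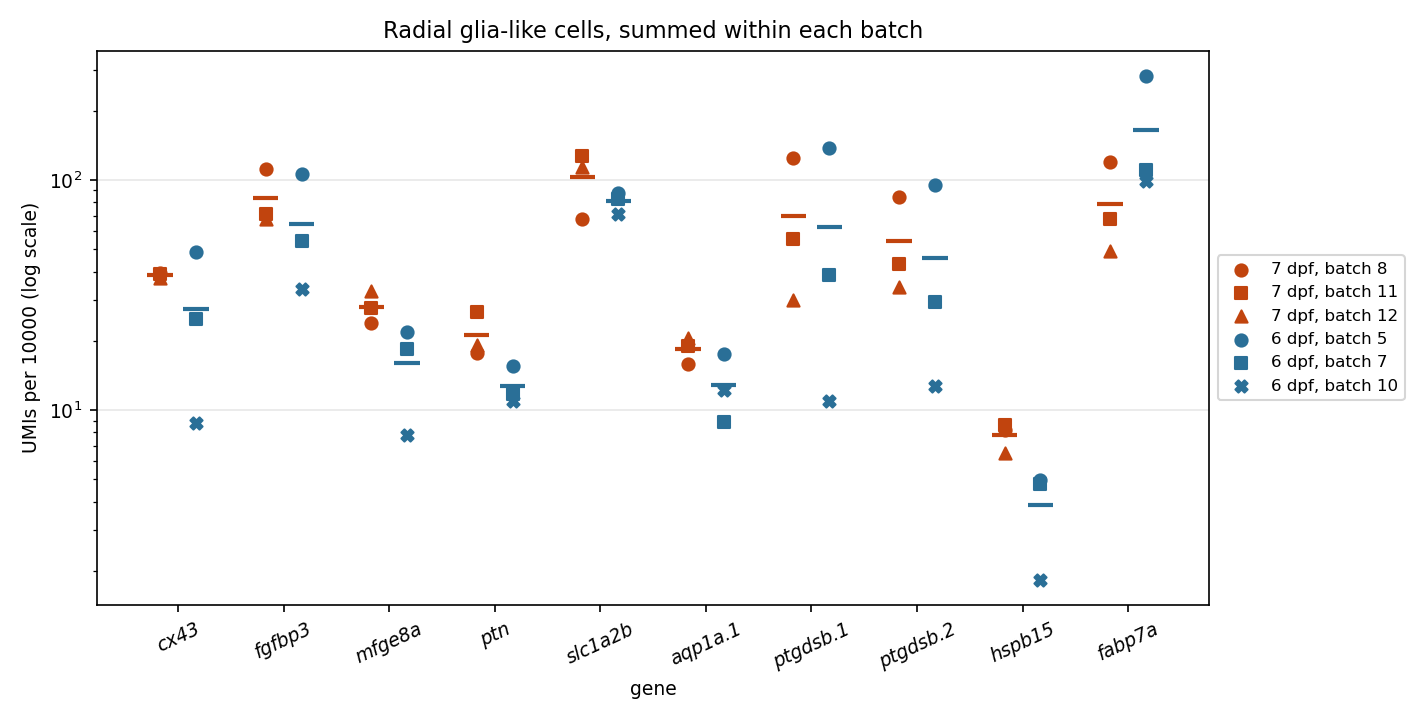
UMIs per 10000 UMIs of the radial glia-like cells of a batch (log axis) for each gene, 7 dpf batches to the left and 6 dpf batches to the right, with short lines at the mean of 3 batches. ptgdsb.1 spans 11.0 to 138 and slc1a2b 67.9 to 127, and the crosses of batch 10 lie lowest for 7 of 10 genes.

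The 2 neighbouring prostaglandin D synthase genes are near relatives. How the counting treated reads from any stretch they share was not examined, so their separate values are uncertain. Of the UMIs of the pair, ptgdsb.1 made up 59.6%, 56.1% and 46.7% in radial glia-like cells of batches 8, 11 and 12, and 59.3%, 56.7% and 46.2% in those of batches 5, 7 and 10. The share averaged 51.9% ± 7.96 over 7 batches, batch 1 included with 23 UMIs of ptgdsb.1 and 36 of ptgdsb.2. In oligodendrocyte lineage-like cells it was 44.7% ± 9.37 (SD, n = 11) and in cycling progenitor-like cells 61.1% ± 11.7 (SD, n = 5). Within batches the share was higher in radial glia-like than in oligodendrocyte lineage-like cells in each of the 7 batches with both. It was 59.6% against 48.4% in batch 8 and 56.7% against 31.5% in batch 7, but 56.1% against 54.7% in batch 11 and 46.2% against 44.9% in batch 10. The difference was not tested.

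Most radial glia-like cells expressed most of the 10 genes at the same time. The median cell carried 9 of the 10, 551 cells (37.9%) carried all of them, and 90.2% carried at least 5. The median per batch ran from 4 to 10 genes. In oligodendrocyte lineage-like cells the median was 3 genes, and 17.0% of cells carried at least 5. In neuron-like cells the median was 1 gene, 48.5% of cells carried none and 0.428% carried at least 5. Over all classes 1923 cells carried at least 5 of the genes, and 68.2% of them were radial glia-like. Of the 612 others, the doublet score called 37.3%, and the part of doublets in them was not tested.

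**Figure D3:**
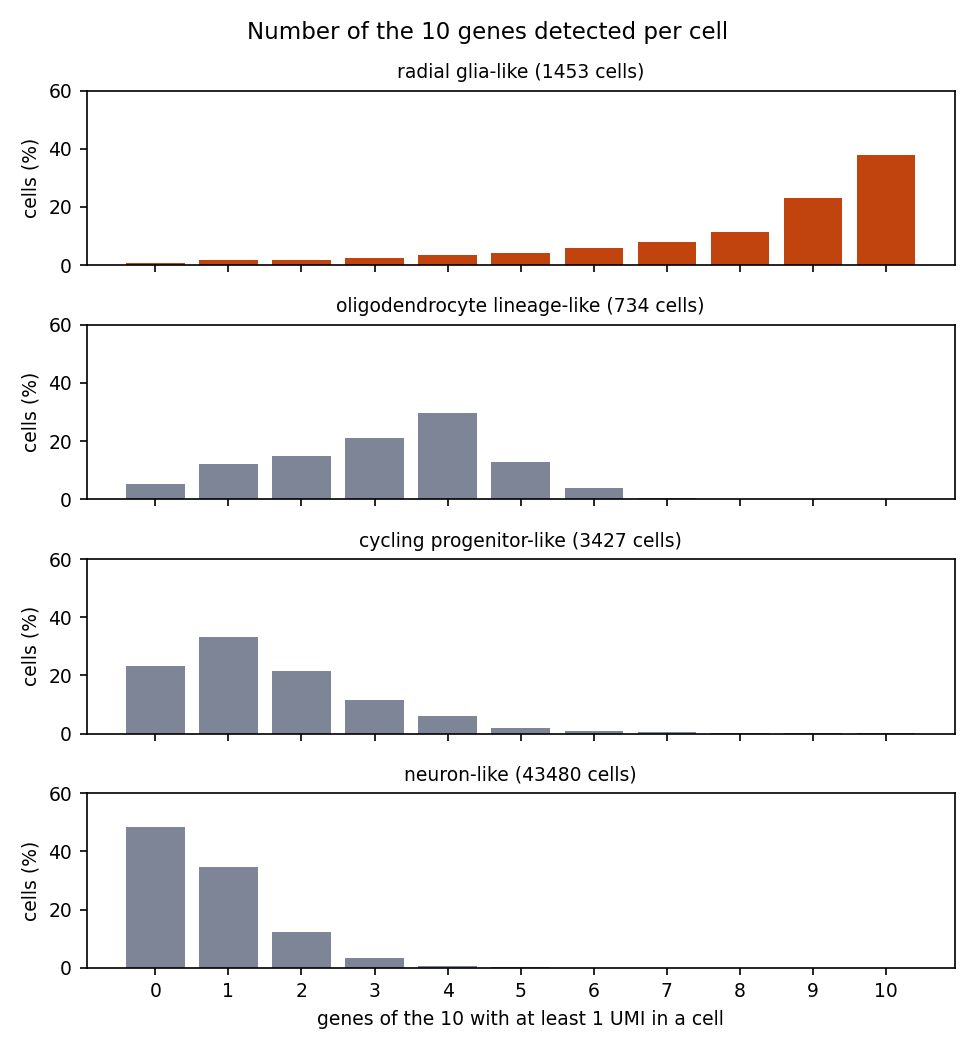
Percent of cells (vertical axis) that carried a UMI of 0 to 10 of the genes (horizontal axis), from top to bottom in radial glia-like, oligodendrocyte lineage-like, cycling progenitor-like and neuron-like cells. Radial glia-like cells pile up at 9 and 10 genes (median 9), while 48.5% of neuron-like cells carry none.

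Within the radial glia-like class, it was counted how often pairs of the genes were found together. The number of cells with both genes of a pair was divided by the number expected from each gene's own frequency in 5 strata of depth within each batch. Summed over all cells, most of them from batch 8, the ratio was above 1 for 45 of 45 pairs, with a median of 1.02 and a range of 1.01 to 1.09. It was above 1 in every batch that could be scored for 22 of the 45 pairs, and for 12 with doublets removed. The highest summed ratio was that of cx43 and hspb15, seen together in 677 cells against 621 expected, with 1.06 to 1.26 in the 5 batches that could be scored. mfge8a with hspb15 followed at 1.07. As a mean of single batches the ratio was highest for cx43 with mfge8a, at 1.22 ± 0.36 with a range of 1.04 to 1.96, and ptgdsb.1 with hspb15 came next at 1.2 ± 0.34 with a range of 1.02 to 1.88 (SD, n = 6 batches). The lowest summed ratio was that of slc1a2b with ptgdsb.2, at 1225 cells against 1217 expected, and it was above 1 in 3 of 6 batches. When only cells of the class with at least 4 of 10 marker genes were used, the median was 1.01 and 43 of 45 pairs lay above 1. Genes that nearly every cell carries cannot exceed 1 by much, so the ratio is bounded for the most frequent ones.

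Free RNA from broken cells puts a few UMIs into any droplet, and barcodes rich in globin, which belong to red blood cells, served to measure this. There were 81 barcodes with at least 20% globin UMIs, in 8 batches. The median depth was 1899 UMIs in radial glia-like cells and 3669 in these barcodes. Of these, 16.05% had a UMI of fabp7a (95% exact binomial interval 8.83% to 25.9%), and 11.1% each a UMI of slc1a2b and ptgdsb.1 (interval 5.21% to 20.05%). ptgdsb.2 was found in 8.64%, cx43 and ptn in 3.70% each, and fgfbp3 and mfge8a in 2.47% each. hspb15 was found in 0 of 81 (interval 0% to 4.45%). These intervals cover counting error only.

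aqp1a.1 was the exception. It had a UMI in 52 of the 81 globin-rich barcodes, or 64.2% (interval 52.8% to 74.6%), and in 7 of the 8 batches that held such barcodes. Its level in them was 4.27 UMIs per 10000. In the erythrocyte-like cluster as a whole (232 cells) it was found in 24.0%, 65.1% and 62.1% of cells in batches 8, 11 and 12 at 7 dpf, and in 28.9% in batch 10 at 6 dpf. The share in globin-rich barcodes was 31.7% after thinning to 1000 UMIs. The mammalian AQP1 water channel is known from red blood cells. Of the UMIs of the 10 genes, aqp1a.1 made up 2.7% in radial glia-like cells, 1.8% in neuron-like cells and 71.0% in globin-rich barcodes.

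Neuron-like cells gave shares near those of globin-rich barcodes for most of the other genes, at a median depth of 2118 UMIs. fabp7a was found in 17.9% of 43480 neuron-like cells, slc1a2b in 18.1%, ptgdsb.1 in 10.1%, ptgdsb.2 in 9.18%, cx43 in 3.40%, ptn in 3.25%, mfge8a in 2.92% and hspb15 in 0.563%. fgfbp3 was found in 7.77%, inside the interval of 0.30% to 8.64% in globin-rich barcodes, and the other 8 shares also lay inside the interval of their gene. For fgfbp3 and slc1a2b this depended on the setting. With at least 10% globin UMIs (123 barcodes), their intervals ended at 6.96% and 17.4%. With no minimum of genes (143 barcodes) they ended at 6.01% and 13.3%. The neuron-like shares of both genes lay above these limits, while those of the other genes except aqp1a.1 stayed inside. After thinning to 1000 UMIs, slc1a2b was found in 8.85% of neuron-like cells and 3.94% of globin-rich barcodes, fgfbp3 in 3.94% and 0.863%, and fabp7a in 9.54% and 6.94%. cx43 was at 1.70% and 2.65% and ptn at 1.52% and 1.98% after thinning. None of these differences was tested, and most globin-rich barcodes came from batches 10, 11 and 12, with 17, 29 and 15. The summed level of the 10 genes in neuron-like cells was highest in the batches richest in radial glia-like cells. It was 8.20 UMIs per 10000 in batch 8 at 7 dpf, where 9.01% of cells were radial glia-like, and 8.20 and 8.36 in batches 5 and 7 at 6 dpf, with 5.51% and 10.6%. In the other 8 batches, with at most 1.55% radial glia-like cells, it was 1.97 to 4.2. The make-up of these UMIs was near that of radial glia-like cells for some genes and not for others. fabp7a gave 23.8% of them in radial glia-like cells and 26.1% in neuron-like cells, ptgdsb.1 17.5% and 14.6%, and ptgdsb.2 12.2% and 11.9%. slc1a2b gave 13.5% and 23.6%, and fgfbp3 16.1% and 10.2%. The sums pool unlike batches, with batch 8 giving 56.0% of radial glia-like and batch 10 28.3% of neuron-like cells. Make-up and batch therefore cannot be told apart.

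**Figure D4:**
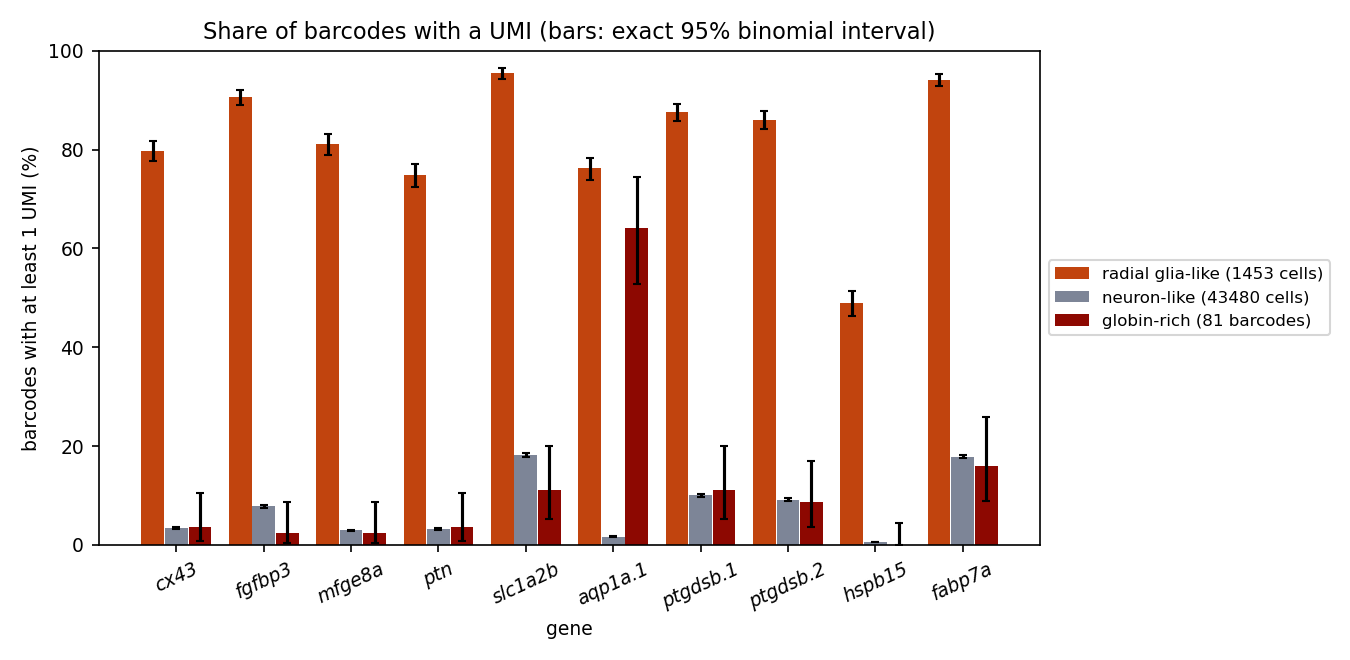
Percent of barcodes with at least 1 UMI of each gene in radial glia-like cells, neuron-like cells and globin-rich barcodes, pooled over batches, with exact 95% binomial intervals for counting error. aqp1a.1 reaches 64.2% in globin-rich barcodes, while the other genes stay at or below 16.05% there.

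The labels define 1 contrast between samples, the age of the larvae, which played no part in choosing the genes. Radial glia-like cells of 3 batches at 7 dpf were compared with those of 3 batches at 6 dpf, using edgeR's quasi-likelihood test on UMIs summed per batch with the sequencer as a covariate. Of 5812 genes tested, 11 passed an adjusted p of 0.05 (0.189% of all tested), 2 higher and 9 lower at 7 dpf. None of the 10 genes was among them, while 461 of all genes had an unadjusted p under 0.05 and DESeq2 called 1 gene, no member of the list. The median log2 fold change of the 10 genes was 0.79, against 0.02 over all genes tested, and 9 of the 10 values were positive.

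hspb15 came nearest to a difference. It was at 8.23, 8.65 and 6.52 UMIs per 10000 in batches 8, 11 and 12 at 7 dpf, and at 4.99, 4.77 and 1.83 in batches 5, 7 and 10 at 6 dpf, without overlap. Its log2 fold change was 1.29 ± 0.57 (SE), with an unadjusted p of 0.0236 and an adjusted p of 0.533 by edgeR. mfge8a was at 23.8, 27.7 and 32.9 at 7 dpf and at 21.7, 18.4 and 7.77 at 6 dpf, with a log2 fold change of 1.02 ± 0.68. ptn was at 17.8, 26.6 and 19.1 at 7 dpf and at 15.6, 11.7 and 11.0 at 6 dpf, with a log2 fold change of 0.63 ± 0.60. Levels of these 3 genes thus lay higher in every 7 dpf batch, and 573 of the 5812 genes tested (9.86%) did so as well, while 229 (3.94%) lay lower in every one. The same order on each of the 2 sequencers follows from this lack of overlap and adds no information. The first sequencer held batch 8 against batches 5 and 7, and the second batches 11 and 12 against batch 10. Each sequencer thus held a single batch of one age.

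The other 7 genes overlapped between ages. cx43 was at 39.4, 38.9 and 37.5 at 7 dpf and at 48.7, 24.9 and 8.78 at 6 dpf, so the 7 dpf batches were close together and the 6 dpf batches lay on both sides of them. Its log2 fold change was 1.00 ± 0.74. fabp7a was the only gene of the list with a negative value, at -0.85 ± 0.72. The remaining values ran from 0.15 ± 0.75 for slc1a2b to 1.1 ± 0.77 for ptgdsb.1. Most radial glia-like cells of batches 11 and 12 at 7 dpf came from the sub-cluster with 87.1% doublet calls. With doublets removed (4 batches) the median of the 10 genes was 0.23. Without batch 10 it was 0.17 and 7 values were positive, and over the whole undivided cluster the median was -0.61 and no value was positive. When cells were taken by the gate of 10 marker genes instead, the median was -0.32 and 1 value was positive. Of the 1844 cells in that gate 66.6% were radial glia-like, and 293 were oligodendrocyte lineage-like. Of the undivided cluster, 3 of 34, 1 of 29 and 1 of 72 cells were radial glia-like in batches 1, 2 and 6. The sign of the group median thus turned with which cells were taken, and the part of other cell types in this was not tested. Without batch 10 the median was smaller with the same sign, and no member passed the threshold in any of the 14 fits.

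In neuron-like cells of the 11 batches, 1 of 18043 genes passed the same test (0.00554%), 1359 genes had an unadjusted p under 0.05, and DESeq2 called 33. None of the 10 genes was among the calls of either tool. Their median log2 fold change was -0.71, against -0.02 over all genes, with 2 of 10 values positive. fabp7a had the largest, at -1.31 ± 0.36 with an adjusted p of 0.525 by edgeR. Its level in neuron-like cells ran from 0.198 to 1.68 UMIs per 10000 over 7 batches at 7 dpf (median 0.968), and from 1.55 to 2.37 over 4 batches at 6 dpf (median 1.64), so that the ages overlapped. Whether the age difference of any gene differed between radial glia-like and neuron-like cells was not tested.

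**Figure D5:**
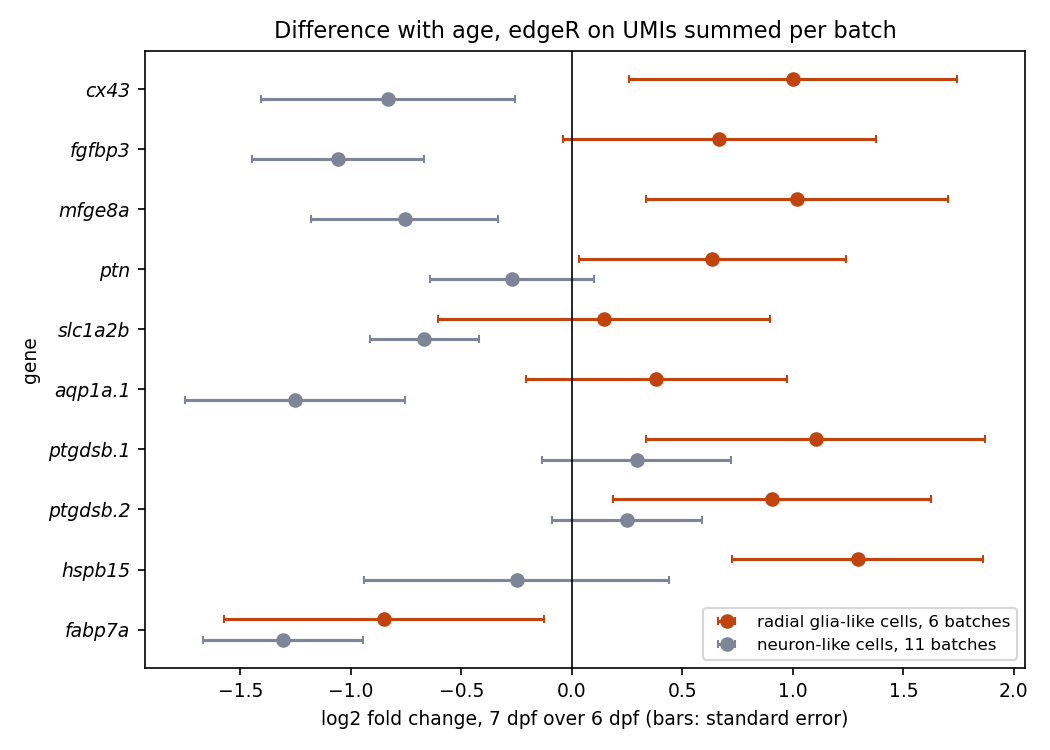
Log2 fold change of 7 dpf over 6 dpf (horizontal axis, bars are standard errors) for each gene in radial glia-like cells (upper point, 6 batches) and in neuron-like cells (lower point, 11 batches). In radial glia-like cells 9 of 10 values are positive and in neuron-like cells 2 of 10, and none passed the threshold.

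Of 18 radial glia marker genes outside the list, 15 could be tested in radial glia-like cells by name and none passed the threshold, with a median log2 fold change of 0.22, against 0.02 over all genes. That median was negative in 6 alternatives, such as -0.30 without batch 10, -0.29 with doublets removed and -0.26 over the undivided cluster, and its difference from the 10 genes was not tested. Of 16 Notch and Her genes, which keep radial glia in an undifferentiated state, 14 were tested, none passed, and the median was 0.10. Lowest adjusted p-values in these lists were 0.707 and 0.720 by edgeR.

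The share of radial glia-like cells itself did not differ detectably between ages. It was 1.75% ± 3.24 of cells in 7 batches at 7 dpf and 4.24% ± 4.86 in 4 batches at 6 dpf (SD), a difference of -2.49 percentage points with an exact two-sided permutation p of 0.37 over 330 assignments. Batches of either age ran from 0.0636% to 10.6%, and leaving out 1 batch gave differences of -0.376 to -3.88. The lowest was batch 6, where 1 of 72 cells of the undivided cluster was kept in the class. Over the undivided cluster the shares were 2.82% ± 2.92 at 7 dpf and 5.54% ± 3.84 at 6 dpf (SD), with a permutation p of 0.22.

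Radial glia-like cells with and without cell cycle transcripts could be compared in 2 batches only. Cells with at least 2 UMIs of a list of 16 cell cycle genes were called cycling (74 cells, 5.09%, of which 50 had exactly 2). Those with none were called not cycling (1122 cells), although at their depth such UMIs can be missed. Batches 8 and 10 had at least 10 cells in both groups, with 47 cycling cells against 720. Cycling cells had a median of 3604.5 UMIs and the others 1734.5. Of 2878 genes tested by edgeR with batch as a block, 2 passed (0.0695%), 50 had an unadjusted p under 0.05 and DESeq2 called none. Only 1 of the 16 cell cycle genes could be tested. It was 1 of the 2 that passed, and these genes had defined the groups. None of the 10 genes was among the calls of either tool, and their median was -0.09, against -0.03 over all genes. hspb15 was at 6.20 ± 2.49 UMIs per 10000 in cycling cells and 4.65 ± 4.52 in the others (SD, n = 2), fabp7a at 105 ± 55.3 and 113 ± 7.27, and cx43 at 23.0 ± 9.67 and 23.4 ± 22.1. With 2 batches and 1 residual degree of freedom the test could detect only very large differences. When cells were taken by the gate of 10 marker genes, which gave 12 sums, all 10 values were negative, from -0.28 to -0.91 with a lowest adjusted p of 0.0702 by edgeR. Over the undivided cluster 9 of 10 were negative, and no member was called. Of the 1844 cells in the gate 66.6% were radial glia-like and 293 were oligodendrocyte lineage-like. The part of other cell types in these values was not tested.

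Which other genes followed the same pattern was asked with the correlation of log2(UMIs per 10000 + 0.1) over 86 class-by-batch sums, against 14808 other genes. The sums share libraries and differ in depth, and the values are a description. fjx1 was nearest to hspb15 (r = 0.895) and to aqp1a.1 (r = 0.797), and nog2, a gene of the noggin family of secreted bone morphogenetic protein antagonists, was nearest to slc1a2b (r = 0.876) and close to hspb15 (r = 0.882) and mfge8a (r = 0.870). hepacama, an adhesion molecule of glia, was nearest to ptgdsb.1 (r = 0.834) and ptgdsb.2 (r = 0.882). The sodium pump subunit gene atp1a1b was nearest to fabp7a (r = 0.838), cyp27c1 to fgfbp3 (r = 0.873), mboat1 to mfge8a (r = 0.887), agmo to ptn (r = 0.833) and slc7a11 to cx43 (r = 0.820). All of these had at least 500 UMIs in the kept cells. Pairs within the list correlated at 0.330 to 0.940 over the same sums (median 0.693).

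Near relatives of the 10 genes were mostly silent in radial glia. fabp7b was found in 0.121% ± 0.296 of radial glia-like cells and 0.144% ± 0.0533 of other cells. slc1a2a was found in 0.141% ± 0.346 and 0.108% ± 0.0614 (SD, n = 6 batches for radial glia-like cells). ptgdsa was found in 0.222% ± 0.391 of radial glia-like cells and was highest in oligodendrocyte lineage-like cells, at 0.543 UMIs per 10000. mfge8b was lower in radial glia-like cells, at 4.50% ± 2.58 against 7.75% ± 1.49 in other cells, and cx43.4 was at 6.55% ± 3.25 against 8.92% ± 3.72. aqp1a.2, the neighbour of aqp1a.1, was found in 0.460% ± 0.380 of radial glia-like cells. hspb1, hspb8, cx30.3, fgfbp1b, fgfbp2a and fgfbp2b each had a UMI in at most 1.63% of radial glia-like cells. The relatives found more often in the class were the growth factor genes mdka and mdkb, which belong to the midkine family with ptn, and the glutamate transporter gene slc1a3b. slc1a3b was among the 10 marker genes by which the class was chosen, so its contrast was built in. mdka was found in 88.8% ± 8.17 of radial glia-like cells and 21.0% ± 5.22 of other cells, mdkb in 88.0% ± 7.38 and 57.9% ± 4.52, and slc1a3b in 23.0% ± 7.81 and 0.666% ± 0.152. Levels of mdka were 41.1 ± 11.9 UMIs per 10000 in radial glia-like cells and 2.35 ± 1.3 in other cells, against 17.0 ± 5.73 for ptn in radial glia-like cells.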

How the data were processed

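UMI counts were deposited by the authors per gene and barcode, made with Cell Ranger 7.1.0 on GRCz11 according to the submitters' processing notes, without normalization. Cells were filtered as given above, normalized, batch-corrected with a re-implementation of the Harmony algorithm and clustered with the Louvain (multilevel) method in Python 3.11.15 with scikit-learn 1.9.0 and igraph 0.11.9 on 2000 variable genes and 25 components. The 10 genes, immediate early genes and mitochondrial genes were left out of the clustering. Clusters were named from markers. The 10 genes, the lists and the alternatives were chosen with earlier results of these data known, and naming thresholds and the sub-clusters after levels had been seen. Counts were summed per class and batch and tested with edgeR 4.0.16 (TMM, filterByExpr, quasi-likelihood, Benjamini-Hochberg over all genes, threshold 0.05), with DESeq2 1.42.0 as an alternative. Tests were run on simulated counts with changes larger than those of the 10 genes in the main fits. The simulation held no batch effect, so it does not show whether smaller differences would be found. The sequencer of a batch was inferred from the order of batch numbers in the study's methods. No batch was split into separate animals, so p-values measure the spread between batches. Named genes were all 10 members, the 3 nearest genes of each by correlation and their relatives.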

Additional observations from a re-analysis of the deposited data

Results flagged for a closer look

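Of 42 groups of 4 or 7 batches examined for a batch far from the others, 10 had such a batch. The limit used gives about 1 in 20 for independent groups with a normal spread. These groups share batches and their genes vary together, so the 2 rates cannot be compared directly. In neuron-like cells at 7 dpf, batch 8 stood above the other 6 batches for aqp1a.1 (0.158 UMIs per 10000, next 0.0651), cx43 (0.491, next 0.152), fgfbp3 (0.927, next 0.335), hspb15 (0.0805, next 0.0315) and ptgdsb.2 (1.29, next 0.612). The same batch had the highest share of radial glia-like cells at 7 dpf, 9.01%, with the next at 1.55%. At 6 dpf, batch 5 stood above the others for fabp7a in neuron-like cells (2.37, next 1.65) and for ptgdsb.1 in oligodendrocyte lineage-like cells (21.2, next 5.53). In oligodendrocyte lineage-like cells at 7 dpf, batch 12 stood out for aqp1a.1 (0.252, next 0.109) and batch 11 for hspb15 (0.434, next 0.172), both at levels of a few UMIs.

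Barcodes left out for more than 10% mitochondrial UMIs still carried the genes. Of 93 such barcodes with at least 4 of the 10 radial glia marker genes outside the list, 89.2% had at least 5 of the 10 genes, with a median of 8, and 70 of the 93 came from batch 7. A count of 0 would have allowed a share of up to 3.23%.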

How the results depend on the processing

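The number of genes called for age in radial glia-like cells, 11, moved with nearly every choice: 1 by DESeq2, 19 without a filter on low counts, 2 without the sequencer covariate, 0 with doublets removed (4 batches), 0 with the gate of 10 marker genes, 4 with a minimum of 10 cells, 0 over the undivided cluster (an alternative added after seeing the data) and 0 to 35 when a batch was left out. In neuron-like cells the count of 1 became 33 by DESeq2, 4 without the filter, 0 without the covariate, 0 with doublets removed and 0 to 2 when a batch was left out. For cycling cells the count of 2 became 0 by DESeq2, 1 without the filter, 1 without the replicate block of batch, 172 with the gate and 35 over the undivided cluster (added after seeing the data). The causes were not tested. None of the 10 genes was called in any of these fits, with lowest adjusted p-values of 0.175 for age in radial glia-like cells, 0.0978 for age in neuron-like cells and 0.0702 for cycling. The share of radial glia-like cells by age kept its sign and its side of the threshold, at -0.376 to -3.88 percentage points without a batch. Of 340 alternative fold changes of the 10 genes, 26 changed sign by more than their SE, none of them called. Taking cells by the gate, of which 66.6% were radial glia-like, moved the share of cells with a UMI for 6 genes, and taking the undivided cluster for 8. Fits with 3 or more cycling UMIs, with doublets removed or with a batch left out were not run for cycling cells, nor was the share by age without maxima of genes and UMIs, since such cells had not been clustered. Depth and the number of radial glia-like cells per batch limit all of these values.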
